A study of Mus musculus with 4 samples.

Results

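A set of 10 genes of the interleukin-6 family signalling route and of the acute-phase response was followed in mouse retina: the receptor subunit Osmr, the transcription factors Stat3, Cebpd, Cebpb and Bcl3, the feedback inhibitor Socs3, and the products Lcn2, Serpina3n, Cp and Timp1. They were taken by symbol, and all 10 were found among the 20094 genes of the deposited table. The list was chosen by pathway, with measured values of these libraries already known, chiefly the Müller levels of Lcn2 and Timp1 and the bipolar level of Serpina3n, so the levels are given as a description and carry no test. Cells came from retinae of Abca4-/-Rdh8-/- mice on a C57BL/6J background at 6 weeks of age. These animals lack the photoreceptor transporter ABCA4 and the retinol dehydrogenase RDH8, which both clear all-trans-retinal, and bright light damages their photoreceptors. All 4 groups carried both deletions. One group received the vehicle DMSO and no bleaching light (unbleached vehicle); dark adaptation and pupil dilation are not recorded for it. The other groups were collected 1 day after 10000 lux of light for 30 min, given after 24 h of dark adaptation with pupils dilated by 1% tropicamide, and received their injection 30 min before the light. One of them received DMSO (bleached vehicle), one the phosphodiesterase 4 inhibitor rolipram at 2 mg/kg, and one the phosphodiesterase 11 inhibitor BC11-38 at 2 mg/kg. Each group was 1 droplet single-cell RNA library from 4 retinae of 2 mice, pooled before capture, so there is no replicate of any condition. A ratio between libraries compares those libraries, and its 95% interval covers counting error only. There was no bleached group without injection and no unbleached group with either drug among the libraries used here.

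Cytokines of the interleukin-6 family, such as LIF, CNTF and oncostatin M, bind receptor complexes built around the shared chain GP130. The Janus kinases bound to those receptors phosphorylate STAT3, which enters the nucleus and switches on target genes, among them its own inhibitor SOCS3. In the liver the same route, together with the C/EBP factors, drives the acute-phase proteins. Müller glia are the radial glia that span the retina, and Stat3 signalling, Gfap and acute-phase products such as lipocalin 2 and the serpin SERPINA3N are well known in glia that react to photoreceptor injury.

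For the promoters, RefSeq windows of the 250 bases before each transcript start (GRCm38.p6) were searched on both strands for the STAT motif TTCNNNGAA and the C/EBP motif TTGCNNAA. Windows were found for 9 of the 10 genes, with Cp represented by 2 windows. The STAT motif was present in 1 of them, Socs3, and in 7.02% of all 32851 windows. The C/EBP motif was present in Lcn2 and in 1 of the Cp windows, and in 9.56% of all windows. Stretches of Lcn2 and Socs3 are shown because their matches belong to an output gene with one of the widest ranges in Müller glia and to a gene whose library order differed between glia and neurons. The Socs3 stretch precedes the start of the transcript in the RefSeq promoter table and lies inside the annotated span of the gene, which reaches further upstream. Capitals mark the match, and bases that overlap a non-coding exon were left out. A match describes letters and no factor's binding was measured.
Lcn2, chr2:32387798-32387989, minus strand: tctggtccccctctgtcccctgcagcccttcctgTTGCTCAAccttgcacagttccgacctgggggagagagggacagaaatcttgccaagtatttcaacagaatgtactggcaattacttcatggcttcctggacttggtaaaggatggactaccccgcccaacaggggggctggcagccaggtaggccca
Socs3, chr11:117969452-117969616, minus strand: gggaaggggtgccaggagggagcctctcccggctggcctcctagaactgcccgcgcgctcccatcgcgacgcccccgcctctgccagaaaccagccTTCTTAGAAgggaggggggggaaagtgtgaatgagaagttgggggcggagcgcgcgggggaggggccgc

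The libraries held 5697, 6809, 7894 and 6143 cells and 35495396, 44386442, 31544696 and 28983626 UMIs (unique molecular identifiers, each marking 1 captured RNA molecule), in the order unbleached vehicle, bleached vehicle, rolipram and BC11-38. Values are given in this order throughout. The libraries shared between 38 and 59 barcodes each with another library. The bleached vehicle library stood apart in the sex of its mice: 0.176% of its cells had a UMI of the X-inactivation transcript Xist, against 48.1 to 51.6% in the others. Results for the 10 genes were therefore also computed in cells with a Y-linked and no Xist UMI. Cell classes were built from clusters made without the genes described here. The Müller class, named from its markers, held 587, 1403, 1191 and 600 cells, or 10.3, 20.6, 15.1 and 9.77% of each library. Its level of Rlbp1, the retinal chaperone of these cells, was 1463, 1072, 2414 and 3110 CPM (the UMIs of a gene per 1000000 UMIs of the class), and that of the glutamine synthetase gene Glul was 4096, 1183, 8926 and 11033 CPM. Both markers were thus present in every library and lowest in the bleached vehicle. Median depth per Müller cell was 11509, 13603, 5544 and 6693.5 UMIs.

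In Müller glia the BC11-38 library had the lowest level of all 10 genes, and the bleached vehicle library had the highest level of 8 of them. The exceptions were Cebpd and Socs3, whose highest level was in the rolipram library. Levels are CPM of the Müller class, from 3' counting, and are compared between libraries for a gene and not between genes.

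**Figure D1:**
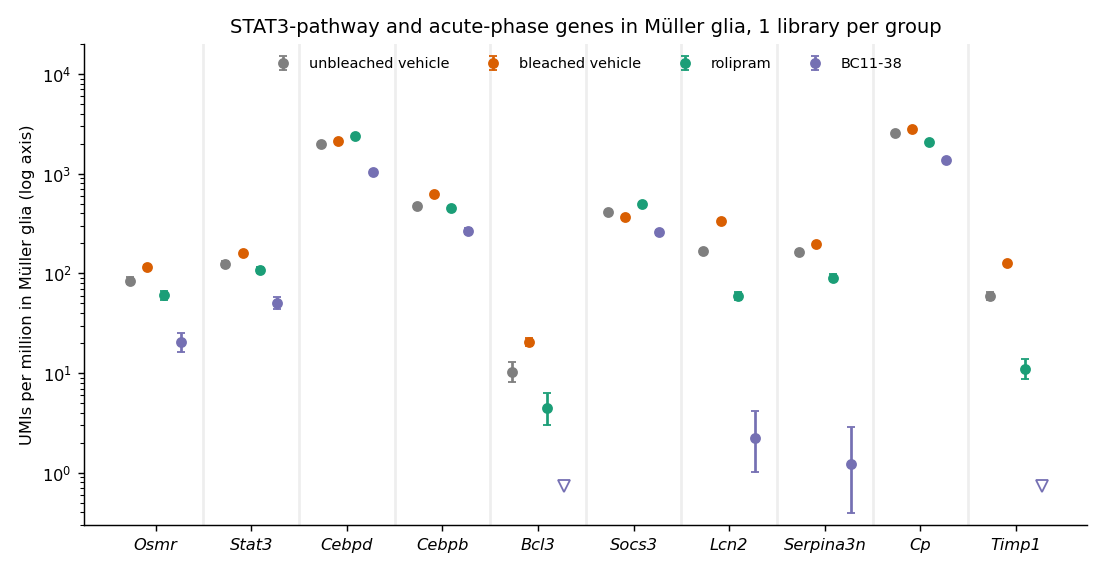
Level of each of the 10 genes in Müller glia (CPM of the class, log axis) in the 4 libraries, 1 library per group, with 95% counting intervals. The BC11-38 library is lowest for every gene; open triangles mark the floor of 3 counts for Timp1 and Bcl3, where it held no UMI.

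Osmr, the oncostatin M receptor subunit that pairs with GP130 (chr15:6813568-6874968), was measured at 84.2, 117, 60.0 and 20.4 CPM. The bleached vehicle was 1.39-fold above the unbleached vehicle. Rolipram lay 1.95-fold below the bleached vehicle, and BC11-38 lay 5.73-fold below it (95% interval 4.61 to 7.23). The receptor gene was therefore highest in the bleached vehicle, with the rolipram level below the unbleached one.

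Stat3, the transcription factor that carries the signal to the nucleus (chr11:100886806-100939594), had 124.9, 158.6, 108.4 and 50.4 CPM. It was 1.27-fold higher in the bleached than in the unbleached vehicle, 1.46-fold lower with rolipram than in the bleached vehicle and 3.15-fold lower with BC11-38 (2.73 to 3.64). Its order of libraries was that of Osmr, an order that Cebpb and Bcl3 also had and Cebpd did not.

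Cebpd and Cebpb are the C/EBP factors delta and beta, which bind acute-phase gene promoters. Cebpd (chr16:15887286-15889545) was at 1980, 2139, 2377 and 1049 CPM, so that 3 libraries lay close together and BC11-38 was 2.04-fold below the bleached vehicle. Cebpb (chr2:167688915-167690432) was at 476, 624, 452 and 266 CPM. It was 1.31-fold higher in the bleached than in the unbleached vehicle, and rolipram and BC11-38 lay 1.38-fold and 2.34-fold below the bleached vehicle. The unbleached and rolipram levels of Cebpb were close to each other.

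Bcl3 encodes an unusual IκB family member that works in the nucleus with NF-κB p50 and p52 (chr7:19808462-19822824). It was sparse, with 76, 415, 31 and 0 UMIs in the whole Müller class, or 10.2, 20.5, 4.46 and 0 CPM. Its level was 2.00-fold higher in the bleached than in the unbleached vehicle (1.57 to 2.59) and 4.60-fold lower with rolipram than in the bleached vehicle (3.19 to 6.85). Against a floor of 3 counts in the class, BC11-38 was at least 27.8-fold lower than the bleached vehicle.

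Socs3, the inhibitor that STAT3 induces and that blocks the receptor's kinases (chr11:117966079-117970336), was at 410, 367, 496 and 258 CPM. The bleached vehicle lay 1.12-fold below the unbleached vehicle, the only one of the 10 genes with that direction over the whole class. Over recomputations with other settings this log2 ratio ran from -0.24 to 0.01, so its direction was not kept in all of them. In Y-linked Müller cells alone Cebpd, Cp and Serpina3n were also lower in the bleached than in the unbleached vehicle. Rolipram lay 1.35-fold above the bleached vehicle and BC11-38 1.43-fold below it. Socs3 thus stayed within 2-fold in each of these 3 comparisons.

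Lcn2 encodes lipocalin 2, a secreted protein that binds bacterial siderophores (chr2:32384637-32387739). Its Müller UMIs were 1231, 6714, 411 and 9, and its levels were 165.9, 331.8, 59.2 and 2.21 CPM. The bleached vehicle was 2.00-fold above the unbleached vehicle (1.88 to 2.13). Rolipram was 5.61-fold below the bleached vehicle (5.07 to 6.21) and BC11-38 was 150-fold below it (78.9 to 328). The rolipram and BC11-38 levels were both below the unbleached level.

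Timp1, the secreted tissue inhibitor of metalloproteinases (chrX:20870166-20874737), gave 442, 2558, 77 and 0 UMIs, or 59.6, 126.4, 11.1 and 0 CPM. It was 2.12-fold higher in the bleached than in the unbleached vehicle (1.92 to 2.35) and 11.4-fold lower with rolipram than in the bleached vehicle (9.09 to 14.5). With BC11-38 it was at least 171-fold lower. Timp1 had the same order of libraries as Lcn2.

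Serpina3n, a secreted serine protease inhibitor (chr12:104406646-104414334), was at 162.4, 195.6, 90.1 and 1.23 CPM, from 1205, 3958, 626 and 5 UMIs. The bleached and unbleached vehicles differed 1.20-fold. Rolipram was 2.17-fold below the bleached vehicle (1.99 to 2.37) and BC11-38 159-fold below it (68.1 to 490). Cp, the copper-binding ferroxidase ceruloplasmin (chr3:19956933-20009750), was at 2546, 2798, 2080 and 1369 CPM, which are ratios of 1.10, 1.35 lower and 2.04 lower for the same comparisons. Serpina3n was nearly lost from the BC11-38 library, while the 4 levels of Cp stayed within a narrower range.

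Counting a gene as different when 2 libraries differed by at least 2-fold with 100 or more UMIs between them, 1 of 10 genes (Timp1) was higher in the bleached than in the unbleached vehicle, where 2.7% of all genes counted in Müller glia were, and none was lower, where 1.73% were; the estimates of Lcn2 and Bcl3 lay just under the threshold, and the count was 3 with median-of-ratios scaling in place of totals. Between rolipram and the bleached vehicle 4 of 10 were lower (Timp1, Lcn2, Bcl3 and Serpina3n) and none was higher, against 6.4% of genes lower and 8.33% higher. Between BC11-38 and the bleached vehicle 9 of 10 were lower, all but Socs3, against 9.59% of genes lower and 10.8% higher. Cp and Cebpd lay just past the threshold: Cp had a log2 ratio of -0.93 as a mean over cells, and without cells that carry astrocyte markers Cp had -0.97 and Cebpd -0.95, which took the count to 8 and 7. The median log2 ratio over the 10 genes was 0.37, -0.76 and -2.08 in these comparisons, where that over all genes counted was 0.00095, 0.088 and 0.069. With Timp1 and Bcl3 set at their bounds the last median was again -2.08. The bleached vehicle library enters all of these ratios, so they are not independent of each other. In Müller cells with Y-linked UMIs alone, 0, 3 and 9 of the 10 genes passed, in the same order of comparisons.

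Rolipram and BC11-38, given at the same dose, were also set against each other. Of 8 genes with enough UMIs, 5 were at least 2-fold higher with rolipram and none lower, where 1.38% of all genes were higher and 0.722% lower. Lcn2 was 26.7-fold higher (13.9 to 58.9), Serpina3n 73.3-fold (31.3 to 227), Osmr 2.94-fold, Cebpd 2.27-fold and Stat3 2.15-fold. Socs3, Cebpb and Cp were 1.92-fold, 1.70-fold and 1.52-fold higher. The RNA of lens crystallin and related genes also differed between these libraries: their summed level in Müller glia was 1.62, 65.8, 3.74 and 2641 CPM. Its part in the ratios was not tested.

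**Figure D2:**
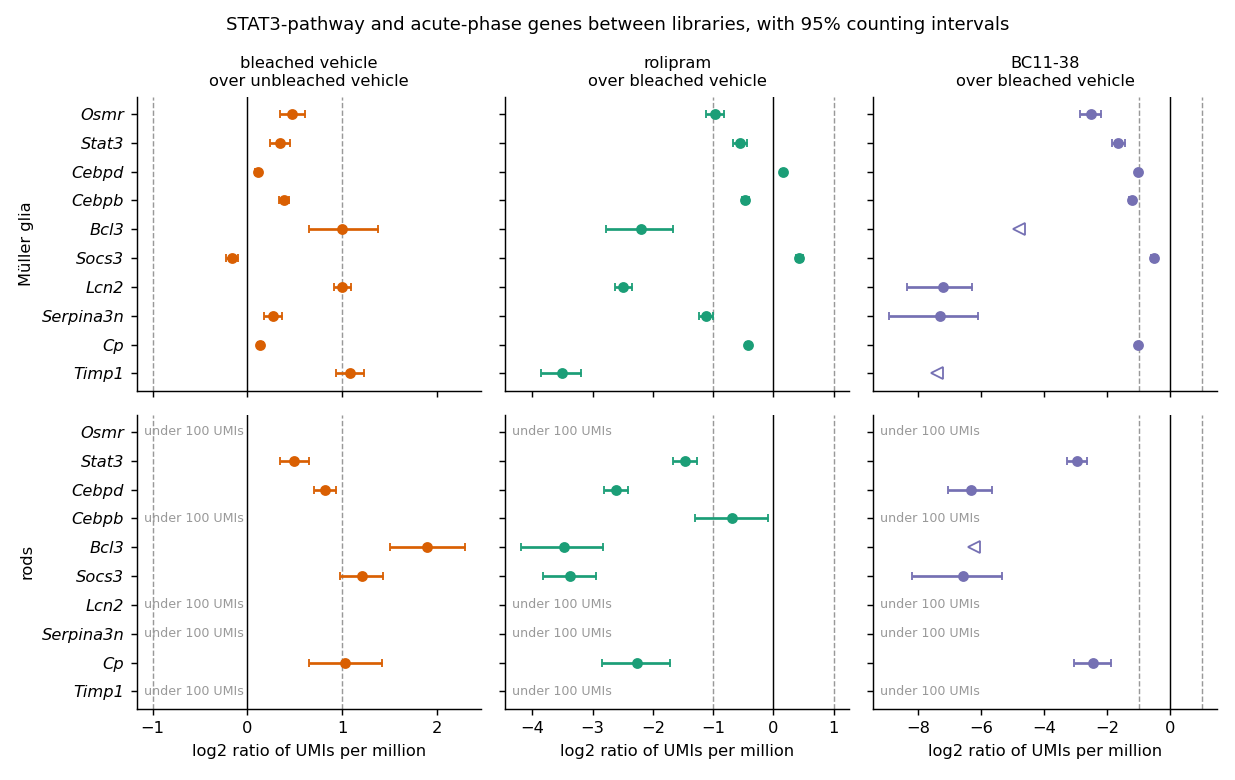
Log2 ratio between libraries for each of the 10 genes in Müller glia (top) and rods (bottom), with 95% counting intervals; dashed lines mark 2-fold and open triangles a ratio against the floor of 3 counts. In Müller glia the BC11-38 ratios of Lcn2, Serpina3n, Timp1 and Bcl3 lie farthest below 0 and Socs3 lies within the lines. In rods Socs3 lies outside the lines in each panel. The BC11-38 rod points of Socs3 and Cebpd rest on 5 and 19 UMIs, no more than the free RNA background described below, and are not read as folds.

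Other genes of the route, taken from lists of ligands, receptors, inhibitors, targets and acute-phase products, were read in the same Müller cells. Their ratios were not computed in Y-linked cells alone or within clusters. Of 4 ligand genes with enough UMIs, 2 were at least 2-fold higher in the bleached than in the unbleached vehicle: Lif by 5.75-fold and Clcf1, a partner cytokine of the CNTF receptor, by 5.17-fold from 12.4 to 64.0 CPM. Against the bleached vehicle rolipram had Lif 5.90-fold and Clcf1 4.49-fold lower and Ctf1, cardiotrophin 1, 2.02-fold higher. BC11-38 had Lif 36.0-fold, Clcf1 9.65-fold and Cntf 4.19-fold lower and Ctf1 higher. Both cytokines that were higher in the bleached vehicle were thus lower in each drug library.

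These counts are of few genes and stand against the same shares of all Müller genes, 2.7% higher with bleaching, 6.4% lower and 8.33% higher with rolipram, and 9.59% lower and 10.8% higher with BC11-38. Of 8 counted receptor and kinase genes a single one was higher in the bleached vehicle, the interleukin-6 receptor Il6ra, from 3.23 to 25.4 CPM or 7.84-fold. It was 29.3-fold lower with rolipram and had no UMI with BC11-38. The CNTF receptor Cntfr went the other way, 2.03-fold higher with rolipram and 2.79-fold higher with BC11-38, where it reached 210 CPM from 75.2 in the bleached vehicle. Among 13 other STAT3 targets counted, Myc was 4.76-fold higher in the bleached vehicle and Vegfa 2.22-fold lower. Rolipram had 3 of 14 lower, Myc by 13.0-fold, the glial filament gene Gfap by 6.57-fold and the hyaluronan receptor Cd44 by 3.32-fold, with Vegfa 2.38-fold higher. BC11-38 had 6 of 13 lower, among them Gfap by 114-fold, Cd44 by 7.57-fold and Vim by 2.87-fold, and 2 higher, Pim3 by 3.34-fold and Vegfa by 3.12-fold.

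Of 6 counted inhibitor genes besides Socs3, Cish, a SOCS family member, was 2.11-fold higher in the bleached than in the unbleached vehicle, from 17 to 98 UMIs, and 2.10-fold lower with rolipram than in the bleached vehicle. Pias3, which encodes an inhibitor of STAT3, was 2.23-fold higher with rolipram and 2.41-fold higher with BC11-38, and Socs2 was 2.52-fold lower with BC11-38, where 5 were counted.

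A further 4 acute-phase genes were counted. The protease inhibitor A2m was 2.05-fold higher in the bleached vehicle than in the unbleached one. With rolipram, A2m was 3.86-fold, the metalloreductase Steap4 3.90-fold and complement C3 2.51-fold below the bleached vehicle. All 4 were at least 2-fold lower with BC11-38, including the complement C1 inhibitor Serping1 by 4.76-fold, and A2m had no UMI there. Of the 5 other STAT genes counted in each of the comparisons with the bleached vehicle, none passed 2-fold in either direction.

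The Müller class was made of 3 clusters, and the libraries filled them unequally. Cluster 8 held 226, 849, 145 and 1 cells, or 38.5, 60.5, 12.2 and 0.167% of the class. Cluster 20 held 259, 218, 937 and 556 cells, or 44.1, 15.5, 78.7 and 92.7%. The remaining cluster 9 held 102, 336, 109 and 43 cells of low depth. The levels of the whole class therefore mix these clusters in different proportions.

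Within cluster 20 the bleached vehicle stood above the other libraries for all 10 genes. Lcn2 was at 46.1, 303, 8.09 and 0.76 CPM there, Serpina3n at 73.9, 396, 45.7 and 1.27 CPM, and Socs3 at 588, 1095, 556 and 265 CPM. The bleached-to-unbleached ratio was 6.58 for Lcn2 (5.41 to 8.05), 5.36 for Serpina3n, 2.55 for Osmr, 2.22 for Cebpd and 2.01 for Cebpb. Timp1, with 27 and 15 UMIs, and Bcl3, with 38 and 8, were under the minimum of 100 UMIs, and their ratios of 2.19 (1.13 to 4.44) and 5.79 (2.66 to 14.4) are imprecise. Socs3, Cp and Stat3 were 1.86-fold, 1.76-fold and 1.65-fold higher. Cells of this cluster with Y-linked UMIs alone and with Xist alone numbered 74 and 158, 162 and 0, 279 and 497, and 210 and 273. No ratio was computed within its Y-linked cells, so the part of sex or mouse in these ratios was not tested. Socs3, lower in the bleached vehicle over the whole class, was thus higher in it within this cluster, which held 15.5% of the bleached Müller cells. In the other clusters it was lower in the bleached than in the unbleached vehicle: 304 against 331 CPM in cluster 8, a ratio of 0.917 (0.866 to 0.973), and 23.5 against 44.6 CPM in cluster 9, where 35 and 14 UMIs leave an interval of the ratio from 0.276 to 1.06.

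Against the bleached vehicle in cluster 20, rolipram was 37.5-fold lower for Lcn2 (27.5 to 52.3) and 8.67-fold for Serpina3n (7.51 to 10.04). Bcl3, at 10 against 38 UMIs, and Timp1, at 10 against 27, were under the minimum, with ratios of 9.38-fold (4.59 to 21.1) and 6.67-fold (3.13 to 15.4) lower. Osmr, Cebpd, Cebpb and Cp were 2.71-fold, 2.31-fold, 2.11-fold and 2.04-fold lower, and Socs3 and Stat3 1.97-fold and 1.58-fold lower. BC11-38 was 6.58-fold lower for Osmr, 4.97-fold for Cebpd, 4.13-fold for Socs3 and 3.29-fold for Stat3. Cebpd and Socs3, which were higher with rolipram over the whole class, were lower with rolipram here. In cluster 8 both were higher with rolipram than in the bleached vehicle, Cebpd 1.53-fold (1.48 to 1.58) and Socs3 1.14-fold (1.03 to 1.25), and in cluster 9 Cebpd was 2.34-fold higher (2.00 to 2.73). The direction of these genes between rolipram and the bleached vehicle thus differed between clusters 8 and 20. Against BC11-38 in cluster 20, rolipram was 36.1-fold higher for Serpina3n (15.3 to 112), 2.43-fold for Osmr and 2.16-fold for Cebpd. Socs3, Stat3, Cebpb and Cp were 2.10-fold, 2.08-fold, 1.49-fold and 1.39-fold higher. Lcn2, at 43 against 3 UMIs, was under the minimum, with a ratio of 10.6 (3.41 to 53.6). Apart from that of Socs3, these ratios were smaller than over the whole class.

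In cluster 8 none of Lcn2, Timp1 and Bcl3 reached 2-fold between the bleached and unbleached vehicles. Lcn2 was at 246, 356 and 265 CPM in the unbleached, bleached and rolipram libraries, Serpina3n at 224, 184 and 270 CPM, Cp at 2856, 2844 and 2852 CPM and Stat3 at 143, 164 and 120 CPM. Bleached-to-unbleached ratios were 1.45 for Lcn2, 1.57 for Timp1 and 1.48 for Bcl3. Timp1, at 93.3, 146 and 48.3 CPM, was the output gene with the widest spread among these libraries. BC11-38 had 1 cell in this cluster and gives no value.

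**Figure D3:**
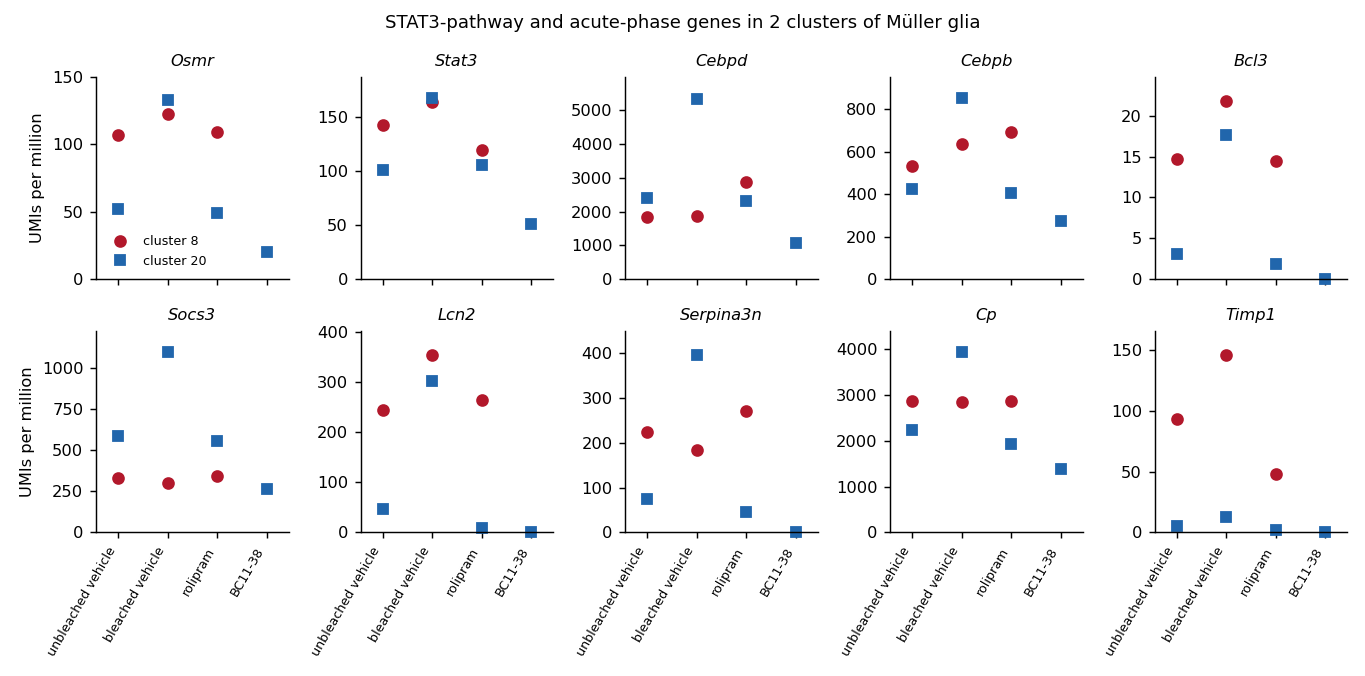
Levels of the 10 genes (CPM, 1 axis per gene, starting at 0) within the Müller clusters 8 and 20, by library. In cluster 20 the bleached vehicle is highest for every gene, while in cluster 8 the values of Cp and Stat3 lie close together and BC11-38, with 1 cell, is not shown. Cells are not split by sex-linked RNA.

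Per-cell detection was compared after thinning each cell to 2000 UMIs, which kept 544, 1336, 1106 and 563 Müller cells and left out 43, 67, 85 and 37 shallower ones. Lcn2 was found in 6.07, 13.3, 2.17 and 0.36% of cells (9.54, 22.2, 2.77 and 0.333% without thinning). Timp1 was found in 6.62, 14.8, 1.54 and 0% (20.4, 43.3, 2.94 and 0% without thinning). In the bleached vehicle both were therefore present in a minority of cells at this depth. Stat3 was found in 18.8, 23.4, 18.3 and 10.7% of thinned cells, Osmr in 11.4, 18.7, 10.2 and 4.80%, and Cp in 91, 86.5, 94.2 and 91.3%. Cp was found in most Müller cells of each library, and no order of libraries is read from its shares, which go against its CPM.

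The number of these genes detected together in a cell was also counted at this depth. The mean number of the 10 genes with a UMI per thinned cell was 3.05 ± 1.37, 3.46 ± 1.71, 2.88 ± 1.22 and 2.18 ± 1.06 (SD over cells), and 13.1, 27.6, 9.58 and 1.78% of cells had at least 5. The variance over mean of Lcn2 counts was 7.89, 11.0, 10.3 and 2.00, where that of Stat3 lay between 1.03 and 1.14. Across the 1336 thinned bleached cells, ln(1 + UMIs) of Cp and Cebpd had a Pearson r of 0.49 and that of Cebpd and Socs3 0.46. The first was 0.23, 0.13 and 0.10 in the unbleached, rolipram and BC11-38 libraries, and the second 0.35, 0.36 and 0.36. In the bleached vehicle the median over the 45 pairs was 0.071. These cells share a library, and the pairs of sparse genes carry little information. They also mix clusters. In the bleached vehicle Cp was at 2844 and 645 CPM in clusters 8 and 9, and Cebpd at 1880 and 405 CPM. The part of this mixing in r was not tested. In the same library, Gfap, the filament gene of reactive glia, had a UMI in 614 of the thinned cells. Lcn2 was found in 14.0% of these cells and 12.7% of the others, Timp1 in 14.5 and 15.1%, and Serpina3n in 31.1 and 16.9%. In the unbleached vehicle, with 156 Gfap-positive cells, the shares were 8.97 and 4.90% for Lcn2, 13.5 and 3.87% for Timp1 and 23.7 and 14.4% for Serpina3n. With rolipram, with 99 such cells, they were 7.07 and 1.69%, 6.06 and 1.09%, and 17.2 and 4.97%. BC11-38 had 1 such cell. All 3 genes thus had the higher share in Gfap-positive cells in the unbleached and rolipram libraries, while in the bleached vehicle the shares of Lcn2 and Timp1 lay close together.

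Because the bleached vehicle library held almost no Xist-positive cells, cells of the other libraries were split by sex-linked RNA. Each library came from 2 mice, so sex and mouse cannot be told apart. In the unbleached vehicle the 219 Müller cells with Y-linked UMIs alone had 240.8 CPM of Lcn2 and the 214 with Xist alone had 43.8 CPM, a ratio of 5.50 (4.48 to 6.81). The same ratio was 3.18 for Timp1 (78.5 against 24.7 CPM), 2.26 for Serpina3n, 1.78 for Osmr, 1.38 for Stat3 and 1.03 for Socs3. It was 4.92 for Bcl3, from 55 and 7 UMIs, 1.47 for Cp, 1.47 for Cebpb and 1.26 for Cebpd. Apart from Socs3, which was near level here, each gene of the set thus had a larger ratio within the unbleached library than between the bleached and unbleached libraries. Of these cells, 61.2% with Y-linked RNA and 24.3% with Xist lay in cluster 8.

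The rolipram library showed the same direction for Lcn2, with 129.7 CPM in 359 Y-linked and 15.9 CPM in 539 Xist cells, a ratio of 8.14 (6.04 to 11.2). Serpina3n differed 1.83-fold there, while Stat3 (108 and 109 CPM) and Socs3 (505 and 504 CPM) were level. In the BC11-38 library Lcn2 was at 0 CPM in 214 Y-linked and 3.14 CPM in 277 Xist cells. In the rolipram library the transcription factor and the inhibitor were thus near equal where Lcn2 and Serpina3n were not.

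Restricted to Y-linked cells, the bleached-to-unbleached ratio in Müller glia was 1.41 for Lcn2 (1.32 to 1.52), 1.61 for Timp1 (1.42 to 1.82), 1.45 for Bcl3, 0.97 for Serpina3n and 0.845 for Socs3. None of the 10 passed 2-fold. Rolipram was at 0.382 of the bleached level for Lcn2, 0.125 for Timp1, 0.320 for Bcl3 and 0.642 for Serpina3n. The bleached-to-unbleached ratios were therefore smaller for Lcn2, Timp1 and Bcl3 than over all cells. The rolipram differences kept their direction but were also smaller than over all cells for Lcn2, Timp1, Bcl3 and Serpina3n. Serpina3n no longer passed 2-fold between rolipram and the bleached vehicle.

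**Figure D4:**
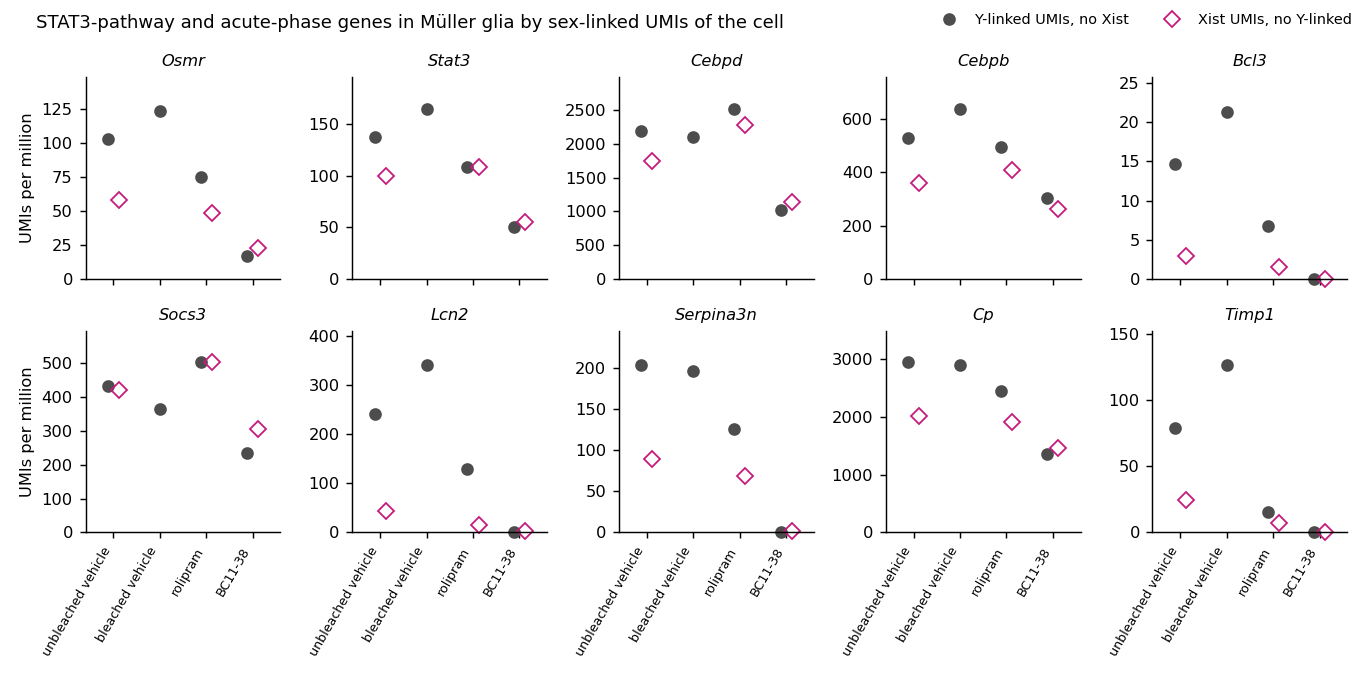
Level of the 10 genes in Müller cells with Y-linked UMIs alone and with Xist alone (CPM, 1 axis per gene, starting at 0), by library; the bleached vehicle has Y-linked cells only. In the unbleached and rolipram libraries Lcn2 is higher in the Y-linked cells, while Socs3 is level.

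Droplets also take up RNA from broken cells, so a background share was measured in neurons. The median rod level of 10 Müller genes, as a share of their Müller level, was 0.917, 2.38, 0.782 and 0.642%. Rod levels of Cp were 0.905, 0.648, 0.554 and 0.902 times the level this share of the Müller RNA gives, so Cp in rods is read as background although it enters the counts. Rod levels of Lcn2, Timp1 and Osmr rested on 20 UMIs or fewer per library and are not read either. Stat3 in rods was 129, 55.1, 88.8 and 82.7 times that level, and Cebpd 12.9, 8.12, 3.65 and 0.771 times and Socs3 15.2, 15.1, 3.28 and 0.826 times. Stat3 was measured above the background in rods of all 4 libraries, and Cebpd and Socs3 in all but BC11-38.

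Rods had Stat3 at 147, 208, 75.2 and 26.8 CPM, Cebpd at 235, 413, 67.8 and 5.19 CPM, Socs3 at 57.0, 131, 12.7 and 1.37 CPM and Bcl3 at 16.6, 61.8, 5.56 and 0 CPM. All 4 regulators were highest in the bleached vehicle, then lower in the unbleached, rolipram and BC11-38 libraries in that order. This order differed from Müller glia, where Cebpd and Socs3 were highest with rolipram.

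The bleached-to-unbleached ratio in rods was 3.72 for Bcl3 (2.84 to 4.93), 2.31 for Socs3 (1.97 to 2.70), 2.04 for Cp, 1.76 for Cebpd and 1.41 for Stat3. That is 3 of 5 counted genes at least 2-fold higher, where 1.5% of all genes counted in rods were; Cp is one of the 3. The count was 1 when other clusterings left a rod cluster unnamed, which took the bleached rods from 2490 to between 429 and 451 cells. That cluster held 2048 to 2075 bleached cells, and its median depth lay between those of the rod clusters that kept the name. Against the bleached vehicle 5 of 6 were lower with rolipram (2.99% of all genes): Bcl3 11.1-fold, Socs3 10.3-fold, Cebpd 6.09-fold, Cp 4.79-fold and Stat3 2.76-fold. With BC11-38 5 of 5 were lower (4.51% of all genes), Bcl3 by at least 75.4-fold, Stat3 by 7.76-fold and Cp by 5.44-fold. Cebpd and Socs3 are the others, with 19 and 5 UMIs in BC11-38 rods, which is no more than the background, so no fold is given for them. With rolipram Stat3 was 2.81-fold higher than with BC11-38, and Cebpd was at 67.8 CPM where BC11-38 was at the background, which makes 2 of 2 counted genes higher, where 0.7% of all genes were. Under those other clusterings the rolipram count was 2 and the BC11-38 count 1 or 2.

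The rod ratios also moved with the sex-linked split. In the unbleached library Cebpd was at 406 CPM in Y-linked and 101 CPM in Xist rods, a ratio of 4.003, and Socs3 at 73.7 and 29.6 CPM. Within Y-linked rods the bleached-to-unbleached ratio was 2.09 for Cp, 1.98 for Bcl3, 1.73 for Socs3, 1.26 for Stat3 and 0.968 for Cebpd. Cebpd was therefore not higher in the bleached vehicle once rods of like sex-linked RNA were compared.

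Rod bipolar cells, the interneurons that receive rod input, carried Serpina3n of their own: 249, 1361, 19 and 0 UMIs, or 121, 375, 7.13 and 0 CPM, in 21.6, 57.6, 2.17 and 0% of cells. This was 330, 247 and 24.2 times the background share in the libraries where it was detected. It was 52.6-fold lower with rolipram than in the bleached vehicle (33.5 to 87.6) and at least 322-fold lower with BC11-38. In the unbleached library it was 185.5 CPM in Y-linked and 16.6 CPM in Xist cells, a ratio of 11.2 (6.76 to 19.7). Within Y-linked cells the bleached-to-unbleached ratio was 2.10 (1.78 to 2.50).

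Socs3 in rod bipolar cells was at 17.0, 63.9, 3.0 and 0 CPM, 3.75-fold higher in the bleached than in the unbleached vehicle, and Stat3 was at 129, 169, 64.9 and 36.9 CPM. Of 4 counted genes 2 were higher in the bleached vehicle (1.06% of all genes), all 4 were lower with rolipram (1.91%) and 3 were lower with BC11-38 (2.64%). Cebpb, at 24.3, 42.1, 18.01 and 25.2 CPM, was the one not past 2-fold with BC11-38. With rolipram, Socs3 had 8 UMIs and was at 1.85 times the background. Within Y-linked rod bipolar cells the bleached-to-unbleached ratio was 2.24 for Socs3 (1.46 to 3.58) and 1.083 for Stat3.

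Other bipolar cells had Serpina3n at 13.0, 65.2, 1.97 and 0 CPM and Socs3 at 8.23, 45.2, 3.79 and 1.25 CPM, which are bleached-to-unbleached ratios of 5.02 and 5.49. Of 6 counted genes 5 were higher in the bleached vehicle (0.783% of all genes), 5 lower with rolipram (0.968%) and 6 lower with BC11-38 (1.2%). Cp is among them although its level was at most 0.919 times the background. Socs3 was at 1.89 and 1.79 times the background with rolipram and BC11-38. Stat3, at 128, 188, 60.6 and 54.1 CPM, was 1.47-fold higher in the bleached vehicle and 3.09-fold and 3.47-fold lower with the drugs. Within Y-linked cells the bleached-to-unbleached ratio was 5.43 for Socs3 (3.45 to 9.01), 3.77 for Serpina3n (2.72 to 5.35) and 1.20 for Stat3. Socs3 and Serpina3n thus passed 2-fold with the sex-linked RNA held alike, and Stat3 did not pass in either set of cells.

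In cones, Stat3 was at 84.7, 124, 38.7 and 33.9 CPM and Socs3 at 61.8, 159, 62.0 and 42.5 CPM. Socs3 was 2.57-fold higher in the bleached than in the unbleached vehicle and one of 2 genes higher among 3 counted (1.3% of all genes); both genes counted with the drugs were lower with rolipram (2.75%) and with BC11-38 (3.27%). The amacrine class, which also holds ganglion cells, had Stat3 at 70.5, 90.7, 43.9 and 24.0 CPM, Socs3 at 7.91, 27.0, 3.91 and 1.77 CPM and Cebpd at 9.69, 40.5, 8.75 and 3.55 CPM. Of its counted genes 3 of 5 were higher in the bleached vehicle (1.13%), 4 of 5 lower with rolipram (0.902%) and 3 of 4 lower with BC11-38 (1.11%). The amacrine counts include Cebpd and Cp, whose levels were at most 1.19 times the background there. They also include Socs3, at 3.13 and 4.62 times the background in the unbleached and bleached vehicles. With rolipram and BC11-38 it was at 1.30 and 1.16 times the background. Within Y-linked cells the bleached-to-unbleached ratio of Socs3 was 2.53 in cones (1.84 to 3.53) and 2.95 in amacrine cells (2.08 to 4.22), while that of Stat3 was 1.09 and 0.972. Over all cells Stat3 had the bleached vehicle highest and BC11-38 lowest in rods, cones, rod bipolar, other bipolar and amacrine cells alike.

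**Figure D5:**
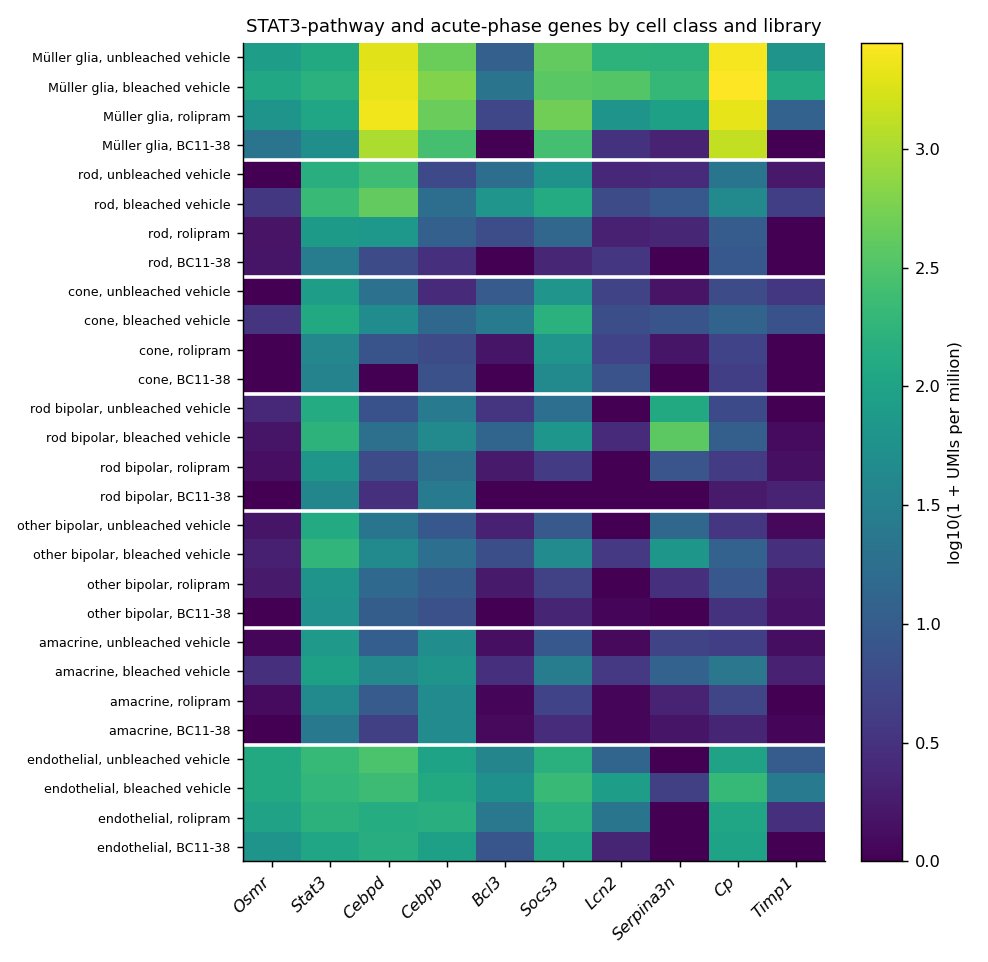
Level of the 10 genes (colour, log10 of 1 plus CPM of each class) in Müller glia, neurons and endothelial cells of the 4 libraries. Socs3 is higher in the bleached vehicle than in the unbleached vehicle in rods, cones, rod bipolar, other bipolar and amacrine cells but not in Müller glia.

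The genes differed in how much of their RNA came from Müller glia. Of all UMIs of Stat3 in a library, 24.0, 44.1, 33.0 and 17.98% lay in Müller cells and 70.0, 50.02, 56.3 and 73.1% in neurons. Bcl3 lay in Müller cells for 35.3, 46.3, 36.0 and 0%. Stat3 was thus mainly neuronal by count in these libraries, with the Müller share highest where Müller cells were most numerous.

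Some non-neuronal cells carried the output genes as well. A small cluster with astrocyte and pigment epithelium markers, of 11, 25, 28 and 11 cells, had Lcn2 at 609, 1855, 32.8 and 0 CPM and Serpina3n at 2338, 3593, 1201 and 9.21 CPM; with so few cells these are levels of these cells only. Endothelial cells had Lcn2 at 12.4, 84.1, 21.0 and 1.25 CPM and Osmr at 121.5, 124.8, 96.1 and 59.8 CPM. Microglia-class cells, 13, 34, 26 and 0, had no Lcn2 UMI. In Müller glia the summed microglia markers were at 33.6, 68.8, 24.8 and 26.1 CPM, with 8, 13, 8 and 5 of 13 detected and Tmem119 at 0 outside the bleached vehicle, and the summed astrocyte markers at 1191, 1067, 876 and 721 CPM, with Thbs4 at 0 in every library and Pax2 at 0 outside the bleached vehicle. The astrocyte sum includes Gfap, which Müller glia carried too, at 584, 701 and 270 CPM in cluster 8 of the unbleached, bleached and rolipram libraries. It is therefore not a measure of astrocyte RNA alone. Without cells that carry astrocyte markers other than Gfap, 22 Müller ratios stayed within their counting interval and 16 did not. The part of the microglia markers in the Müller ratios was not tested.

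The genes most like the 3 with the widest Müller range were ranked by Pearson's r over 28 class and library points, which share 4 libraries. Timp1 was closest to Lcn2 (0.90), Myc (0.89) and Mvp (0.87), the major vault protein. Lcn2 was closest to Timp1 (0.90), Mvp (0.88) and Myof (0.85). Serpina3n was closest to A2m (0.85), Commd4 (0.77) and the metallothionein Mt2 (0.76), so its pattern was not led by the other output genes.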

How the data were processed

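Single-cell 3' RNA libraries of dissociated retina (papain, droplet capture, about 15000 cells loaded each) were sequenced by the submitters, whose processing notes name Cell Ranger 6.0.1, Seurat 3.2.2 and mm10 without saying which step used which. The authors deposited natural log values, ln(1 + UMIs per 10000 UMIs of the cell); whole UMIs were recovered from all 55438450 values above 0, within 0.01 of a whole number. The design written for raw counts was kept, with UMIs summed by class and library. Per the deposited values, cells had at least 497 detected genes and at most 19.99% mitochondrial UMIs. A further group that the series names was not analysed here.

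Clustering used 2000 variable genes in scanpy 1.11.5, with igraph 0.11.9 and anndata 0.12.19, and left out the 10 genes, the pathway lists and sex-linked genes. It took 30 components, 15 neighbours and Leiden resolution 1, and gave 30 clusters. Clusters were named from fixed markers; leaving genes unscaled and the naming rule were chosen after seeing clusters. The doublet caller Scrublet marked 0 to 18 cells per library, fewer than the 4.56 to 6.32% its settings expect, so it did not work. The marked cells were left out of the classes, and no other doublets were removed.

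Levels are CPM, the UMIs of a gene per 1000000 UMIs of a class. A comparison counted a gene when the 2 libraries together had 100 UMIs or more, and the gene was called at 2-fold, after a prior of 0.5 UMI. With 1 library per group there is no replicate and no test of condition: 95% intervals cover counting error only. The ratio calculation was tested on simulated data. Named genes of a pathway list were at most the 4 largest changes per comparison. The 10 genes, the lists and the comparisons were chosen with earlier results of these data known.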

Additional observations from a re-analysis of the deposited data

Results flagged for a closer look

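In 3 cases a gene moved one way in Müller glia and the opposite way in every neuron class counted; with 1 library per group these differences were not tested. Socs3 had a log2 ratio of the bleached over the unbleached vehicle of -0.16 in Müller glia. Over the recomputations described below this Müller ratio ran from -0.24 to 0.01, so its direction was not kept in all of them. In neurons it was 1.20 in rods, 1.36 in cones, 1.90 in rod bipolar cells, 2.45 in other bipolar cells and 1.76 in amacrine cells. For rolipram over the bleached vehicle, Socs3 had 0.43 in Müller glia, and -3.36, -1.35, -4.34, -3.55 and -2.76 in those neuron classes. Its level with rolipram was 1.85, 1.89 and 1.30 times the background in rod bipolar, other bipolar and amacrine cells. Cebpd had 0.15 in Müller glia for rolipram over the bleached vehicle, and -2.60 in rods, -1.65 in other bipolar cells and -2.20 in amacrine cells, where its level was near the background from free RNA.

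The direction in Müller glia differed between clusters. Within cluster 20 Socs3 and Cebpd were higher in the bleached vehicle than in the unbleached and rolipram libraries. In those libraries the cluster held 158 and 497 cells with Xist alone, against 0 in the bleached vehicle, and the part of this was not tested. Within cluster 8, which held 60.5% of the Müller cells of the bleached vehicle and 12.2% of those of the rolipram library, the bleached-to-unbleached ratio was 0.917 for Socs3, and the rolipram-to-bleached ratio was 1.53 for Cebpd and 1.14 for Socs3. In cluster 9 the rolipram-to-bleached ratio of Cebpd was 2.34, and Socs3 had too few UMIs. The direction opposite to neurons was thus also seen within cluster 8.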

How the results depend on the processing

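No paired analysis was possible because each group has 1 library, and for the same reason no library could be left out. No ratio changed sign among the 34 called ratios over 310 recomputations, but each of these was at least 2-fold to begin with. Of 524 recomputed ratios 396 stayed within their counting interval. Some ratios under 2-fold did change sign. For the bleached over the unbleached vehicle in Müller glia, the log2 ratio of Serpina3n ran from -0.09 to 0.70. That of Cebpd ran from -0.06 to 0.25, of Cp from -0.03 to 0.19 and of Socs3 from -0.24 to 0.01. In rods that of Cebpd ran from -0.05 to 1.64. The rod ratio of Cebpb for rolipram over the bleached vehicle ran from -1.84 to 0.60. Between the bleached and unbleached vehicles, 1 gene passed 2-fold in Müller glia. This count was 3 with median-of-ratios scaling, a 1.5-fold threshold, the highest doublet scores left out, the 10 genes kept for clustering, means over cells, cells with astrocyte markers left out, or cluster 9 left out. It was 2 with Leiden resolution 0.5 or scaled genes and 0 in Y-linked cells. The Müller BC11-38 count of 9 was 8 with means over cells, where Cp lay under 2-fold, and 7 without cells with astrocyte markers, where Cp and Cebpd did. Rolipram over BC11-38 gave 8 rather than 5 genes at 1.5-fold. In rods the bleached-to-unbleached count of 3 was 8 with a minimum of 10 UMIs, and 1 in Y-linked cells, at Leiden resolution 0.5, with the 10 genes kept, with cells of at least 2000 UMIs or with scaled genes. The rolipram count of 5 was 9 with a minimum of 10 UMIs, 2 at resolution 0.5, with the genes kept or with scaled genes, and 3 with at least 2000 UMIs. The BC11-38 count of 5 was 10, then 2 at resolution 0.5 or scaled, 1 with the genes kept and 3 with at least 2000 UMIs. At resolution 0.5, with the genes kept and with scaled genes, a rod cluster of 2075, 2051 and 2048 bleached cells had no name. The bleached rods then numbered 429, 450 and 451. For the other changed counts the cause was not tested. Scaled genes and leaving out cluster 9 were chosen after seeing the data.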
